A study of Mus musculus with 24 samples.

Results

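The 35 genes described here encode the fibroblast growth factors (FGFs) of the mouse autosomes, their receptors, and genes that relay or restrain their signal. They were chosen by name, with earlier results of these data known, and are 35 of the 21418 protein-coding genes that the mm9 annotation places on the autosomes. They comprise 20 ligands, 5 receptors, the adaptor Frs2, 7 feedback inhibitors and 2 transcription factors of the ETS family. FGF ligands bind receptor tyrosine kinases at the cell surface together with heparan sulphate, and the adaptor FRS2 passes the signal on to the MAP kinase pathway. That pathway switches on ETV4 and ETV5, and also Sprouty, Spred and Dusp6 genes, whose products dampen it. In the fetal gonad, FGF9 favours the testis fate of the supporting cells and opposes Wnt signalling, which favours the ovary fate.

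Each gene was described by H3K4me3, a histone mark found at the starts of active or poised genes, and by H3K27me3, the mark that Polycomb complexes write and bind at silenced developmental genes. A promoter that carries both is called bivalent. The marks were profiled by ChIP-seq, with H3 as the control, in gonadal cells sorted from C57BL/6 x CD1 embryos. XY and XX progenitors were sorted at E10.5 by the SF1-eGFP reporter, Sertoli cells at E13.5 by Sox9-CFP, and XX cells at E13.5, labelled granulosa and here called pregranulosa, by TESM-CFP, so that each population holds the cells its reporter marks in pooled gonads. The 24 libraries gave 8 lists of peaks, 1 for each mark in each population, so no value below has a replicate spread and no difference between lists was tested.

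Marks at genes that define the populations were looked up first. Of the 5 Sertoli markers, 0 had H3K27me3 in the Sertoli list, while Sox9, Dmrt1, Dhh and Amh had it in the pregranulosa list. Of the 6 pregranulosa markers, all had H3K27me3 in both progenitor lists and in the Sertoli list, and 3 (Foxl2, Fst and Irx3) still had it in the pregranulosa list. Of the 6 progenitor markers, 5 had it in XY progenitors, 6 in XX progenitors, 3 in Sertoli cells (Lhx9, Cbx2 and Emx2) and 1 in pregranulosa cells (Cbx2), and Cbx2 was the marker without it in XY progenitors. Foxl2 was thus covered by H3K27me3 over its full window (4001 bases) in the population that it marks. The paper reports that a closer view shows loss of the mark at the start and body of Foxl2, which enrichment over its promoter window did not reveal. Of the 5 germ cell markers, Ddx4 and Nanos3 had no mark in any list, Pou5f1 and Sall4 had H3K27me3 in all 4, and Dazl had H3K4me3 alone in all 4. H3K4me3 was found at 1, 1, 1 and 2 of the 4 endothelial markers in XY progenitors, XX progenitors, Sertoli and pregranulosa cells, at 0 of the 3 blood markers in each, at 1, 3, 2 and 3 of the 4 Leydig cell markers, and at 4, 3, 3 and 3 of the 4 markers of mesonephros and epithelium. H3K27me3 was found at 1 endothelial marker (Kdr) and 1 Leydig marker (Insl3) in each list, at 1 blood marker (Spi1) in XX progenitors and Sertoli cells, and at Pax2, Pax8 and Cdh1 in each, with Cdh16 in Sertoli cells as well. The part of other cell types in the marks below was not tested.

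A promoter was the 4001 bases of TSS ± 2 kb around the 5′ end of the gene record, and it was called marked where a region of the list overlapped it by at least 1 base. H3K4me3 was called at 29, 31, 29 and 30 of the 35 Fgf pathway genes in XY progenitors, XX progenitors, Sertoli and pregranulosa cells, against 64.8%, 66.7%, 65.5% and 67.0% of all autosomal protein-coding genes. H3K27me3 was called at 21, 21, 19 and 25 of them (60.0%, 60.0%, 54.3% and 71.4%), against 23.6%, 22.8%, 24.2% and 22.1% of all genes. Both marks were called at 17, 20, 16 and 22 members, against 20.9%, 21.4%, 19.2% and 19.6% of all genes. The share of members with H3K27me3 was thus above the share of all genes in each of the 4 lists, and it was lowest in Sertoli cells and highest in pregranulosa cells. That order did not hold under all settings: with the widest 75% of regions the counts were 19, 17, 18 and 21, and with lists of equal length 21, 21, 18 and 21. The lists differ in depth: the H3K27me3 lists of XY progenitors, XX progenitors and Sertoli cells were made from 6470151, 33185400 and 44446456 tags, those of H3K4me3 from 10162534, 49254553 and 31104760, and the depth of the 2 pregranulosa lists is unknown. What depth contributed to a call was not tested.

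**Figure D1:**
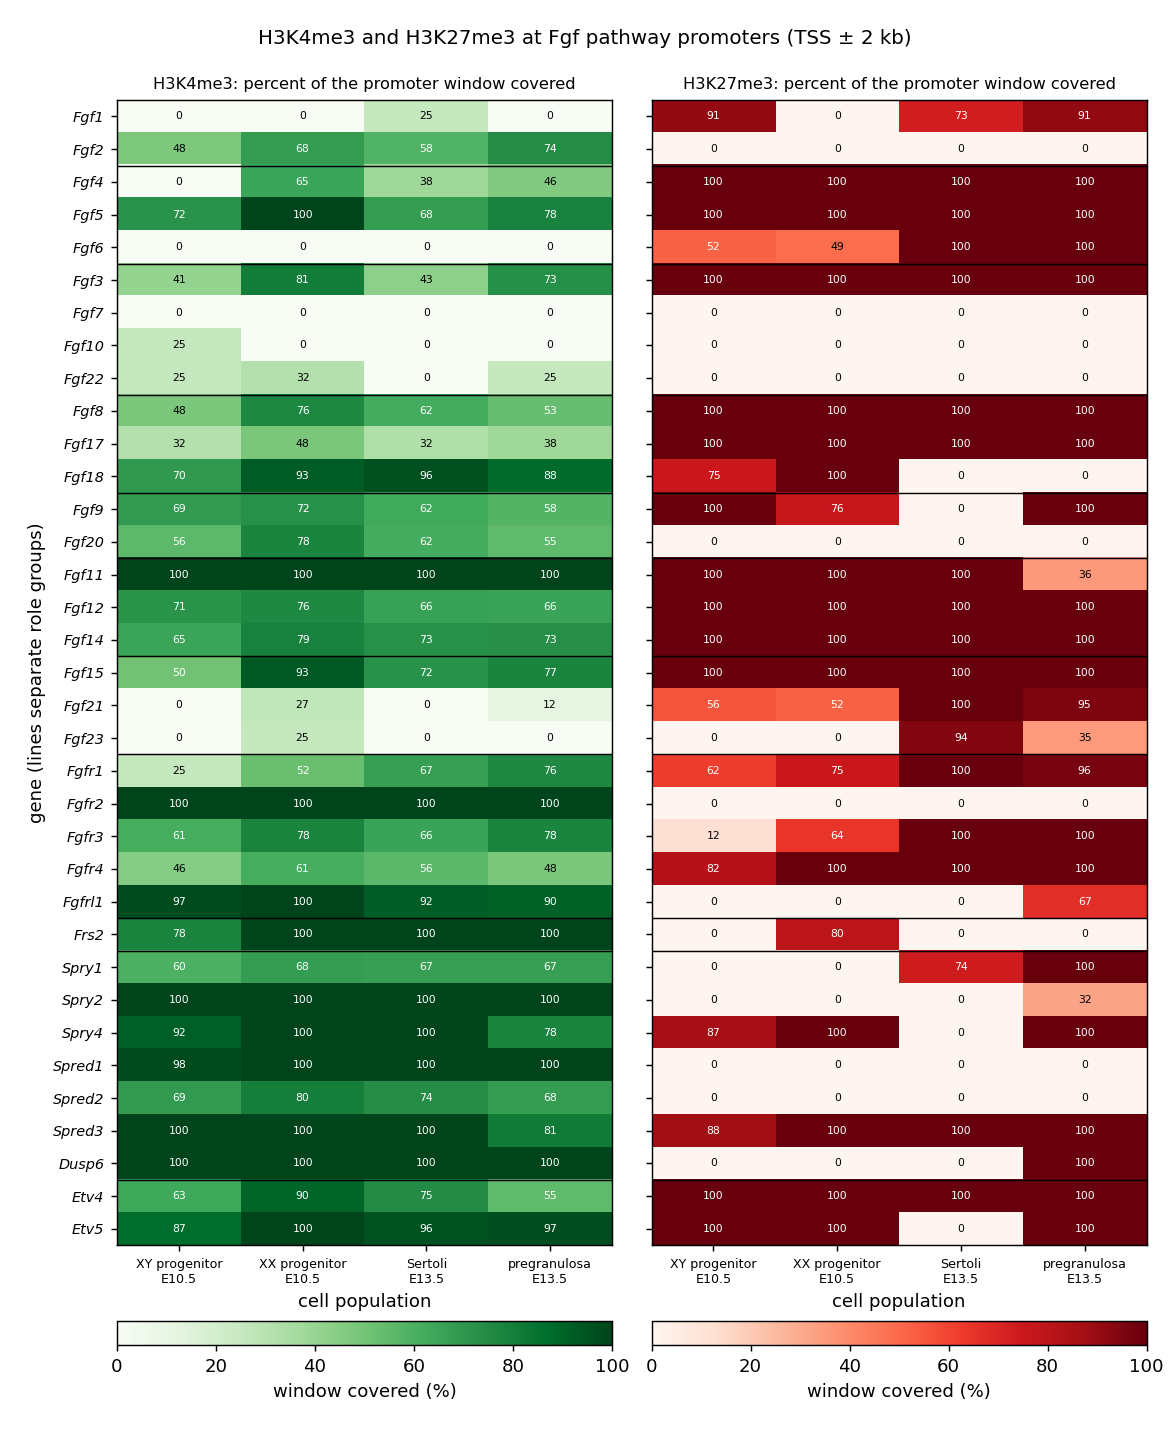
Percent of the promoter window (TSS ± 2 kb) of each of the 35 genes covered by regions of H3K4me3 (green, left) and H3K27me3 (red, right), with 1 column for each population and lines between role groups. H3K27me3 reads 0 for Fgf9, Spry4 and Etv5 in Sertoli cells alone, and reads above 0 for Dusp6, Spry2 and Fgfrl1 in pregranulosa cells alone.

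H3K27me3 was called in all 4 lists at 16 of the 35 members (against 16.3% of all genes), and in no list at 8 (against 68.8%). The other 11 differed between lists: Fgf1, Fgf9, Fgf18, Fgf23, Fgfrl1, Frs2, Spry1, Spry2, Spry4, Dusp6 and Etv5. Between the E13.5 lists, 6 members had H3K27me3 in pregranulosa and not in Sertoli cells (Fgf9, Fgfrl1, Spry2, Spry4, Dusp6 and Etv5; 2.96% of all genes), and 0 had it in Sertoli and not in pregranulosa cells (5.11% of all genes). With at least 50% of the window required, 2 members, Fgf11 and Fgf23, had it in Sertoli and not in pregranulosa cells. With the widest 75% of regions of each list, or with lists of a mark of equal length, 2 members, Fgf1 and Fgf11, did.

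From XY progenitors to Sertoli cells, 4 of the 21 marked members had no H3K27me3 in the later list (Fgf9, Fgf18, Spry4 and Etv5), or 19.0%, near the 22.4% of all genes marked in XY progenitors. Of the 14 not marked, Fgf23 and Spry1 had it in Sertoli cells (14.3%, against 7.68%). From XX progenitors to pregranulosa cells, 2 of 21 marked members had none in the later list (Fgf18 and Frs2; 9.52%, against 18.5%), and 6 of 14 unmarked members had it there (Fgf1, Fgf23, Fgfrl1, Spry1, Spry2 and Dusp6; 42.9%, against 4.43%). When each list was reduced to the number of regions of the shortest, 3 and not 6 members had H3K27me3 in pregranulosa cells that they lacked in XX progenitors. With the widest 75% of regions, 4 members gained it from XY progenitors to Sertoli cells. Under that rule Fgf11 alone, and not Fgf18 or Frs2, lost it from XX progenitors to pregranulosa cells. The progenitors of either sex differed at 2 members: Fgf1 had H3K27me3 in XY and not XX cells (2.33% of all genes), and Frs2 in XX and not XY cells (1.55%).

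The start chosen for a gene mattered for some members, because the 5′ end of the record can lie far from the usual start of the coding transcripts. RefSeq promoter sequences placed on mm9 by exact match gave a start, or several, for 27 members, and for 5 of them, Fgf2, Fgf9, Fgf10, Fgf14 and Fgfr2, none lay within 2 kb of the record's start. At the RefSeq starts of Fgf2 and Fgf10, 36134 and 44908 bases further in, H3K27me3 was called in all 4 lists, and at the second coding start of Fgf20, 21378 bases further in, it also was. With the start of any coding transcript counted, 19 members had H3K27me3 in all 4 lists (17.2% of all genes) and 5 in none (67.6%), namely Fgf7, Fgf22, Fgfr2, Spred1 and Spred2. The 11 members that differed between lists were the same. Some starts were shared. Where H3K4me3 was called at Fgf2, Fgf11, Fgf20, Fgf21, Fgfr2, Spred3 and Spry4, its region at the record's start also held the start of another coding gene.

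The ligands were grouped by subfamily. In the Fgf8 subfamily, whose ligands pattern embryonic fields, Fgf8 and Fgf17 had both marks in all 4 lists, and H3K27me3 covered their windows and whole gene bodies in each. With at least 50% of the window required, Fgf17 had no H3K4me3 in any list and Fgf8 none in XY progenitors. Around Fgf8 the H3K27me3 region was 22628, 24734, 23979 and 43649 bases wide in XY progenitors, XX progenitors, Sertoli and pregranulosa cells, and Fgf17 lay in regions of 26953 to 33219 bases. Fgf18, the member of this subfamily best known from bone, lung and also ovary, behaved differently. Its record lies at chr11:33017430-33047400 on the minus strand. H3K27me3 covered 3014 bases of its window in XY progenitors, 4001 in XX progenitors, 0 in Sertoli cells and 0 in pregranulosa cells, and H3K4me3 covered 2782, 3717, 3835 and 3502 bases. The H3K4me3 region at Fgf18 was 2782 and 4013 bases wide in the progenitors and 6715 and 6884 bases wide at E13.5. H3K27me3 in the E10.5 pair alone was found at Fgf18 (1 member, against 2.24% of all genes), and with the widest 75% of regions Fgf18 had it in XY progenitors alone. The H3K27me3 region at the start of Fgf18 was 6468 bases wide in XY progenitors and 6254 in XX progenitors and covered 18.2% and 12.6% of the gene body, and Sertoli cells had 0% covered. In pregranulosa cells a separate region, chr11:33019630-33025901, lay within the body of Fgf18, and it covered 20.9% of the gene. Neither progenitor list had an H3K27me3 region there.

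Fgf9, the ligand that favours Sertoli cell fate, has its record at chr14:58689384-58731174 on the plus strand. H3K27me3 covered 4001 bases of its promoter window in XY progenitors, 3044 in XX progenitors, 0 in Sertoli cells and 4001 in pregranulosa cells. H3K4me3 covered 2761, 2901, 2502 and 2313 bases in the same order, so Fgf9 had both marks in 3 populations and H3K4me3 alone in Sertoli cells. The H3K27me3 region over the start was 12570 bases wide in XY progenitors, 10207 in XX progenitors and 15874 in pregranulosa cells, where a further region of 13465 bases, chr14:58713087-58726551, lay inside the gene. H3K27me3 covered 23.0%, 21.9%, 0% and 60.4% of the gene body in XY progenitors, XX progenitors, Sertoli and pregranulosa cells. At each of the other 3 coding starts of the gene, among them the RefSeq start at 58691523, H3K27me3 covered the full window in every list but that of Sertoli cells, where it covered 0 bases. Under none of the alternative settings did the calls at Fgf9 differ. Fgf20, which shares its subfamily, had H3K4me3 and no H3K27me3 at the record's start, while at its inner coding start both marks were called in all 4 lists.

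The study measured Fgf9 by ChIP-qPCR with a pair of primers, shown here to place that assay among the regions. They match mm9 once each and bound 245 bases, chr14:58690618-58690862, which begin 1234 bases after the start of the record and end 661 bases before the RefSeq start, in no annotated exon. All 245 bases lay in H3K4me3 regions of the 4 lists and in H3K27me3 regions of each list except the Sertoli list, where 0 did. Capitals mark the primers as ordered, 5′ to 3′.
Fgf9 forward primer, plus strand, chr14:58690618-58690636: ATCTGACTCACACCCAACT
Fgf9 reverse primer, minus strand, chr14:58690843-58690862: AGCAGCAGCCCGAAGACATT

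In the Fgf4 subfamily, Fgf4, Fgf5 and Fgf6 had H3K27me3 in all 4 lists, and it covered 4001 bases of the windows of Fgf4 and Fgf5 in each and 1964 to 4001 bases at Fgf6, the ligand of skeletal muscle, which had no H3K4me3 in any list. Fgf4 had no H3K4me3 in XY progenitors and 2606, 1514 and 1842 bases in XX progenitors, Sertoli and pregranulosa cells. In the Fgf7 subfamily, of which Fgf7 and Fgf10 signal from mesenchyme to epithelium, Fgf3 had both marks in all 4 lists. Fgf7 had neither mark in any list, and Fgf22 had H3K4me3 alone (1001, 1259, 0 and 1001 bases). Fgf10 had 1001 bases of H3K4me3 at the record's start in XY progenitors and no other mark there, while at its coding start H3K4me3 covered 3306 to 4001 bases and H3K27me3 3860 to 4001 bases. Of the Fgf1 subfamily, Fgf2 had H3K4me3 in all 4 lists at the record's start and at the RefSeq start. In each list the H3K4me3 region at the record's start also held the starts of 2 other coding genes. With at least 50% of the window required, H3K4me3 was called at Fgf3 in XX progenitors and pregranulosa cells alone, at Fgf4 in XX progenitors alone, at Fgf2 in every list but that of XY progenitors, and at Fgf1, Fgf10 and Fgf22 in none. Under that rule Fgf6 had no H3K27me3 in XX progenitors.

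Fgf1, an acidic FGF that binds all FGF receptors, lies at chr18:38998327-39089058 on the minus strand. H3K27me3 covered 3639 bases of its window in XY progenitors, 0 in XX progenitors, 2917 in Sertoli cells and 3655 in pregranulosa cells, and H3K4me3 covered 1001 bases in Sertoli cells and 0 in the other lists. At a coding start 10633 bases further in, H3K4me3 covered 1001, 1001, 1001 and 1338 bases, and H3K27me3 covered 4001 bases in pregranulosa cells and 0 in the other lists. With the widest 75% of regions Fgf1 had H3K27me3 in Sertoli cells alone, and with lists of equal length in XY progenitors and Sertoli cells. The H3K27me3 region was 5001, 7453 and 5001 bases wide where present, and 5001 is the width of a single window of the peak finder. H3K27me3 covered 3.71%, 5.51%, 18.2% and 39.6% of the gene body in XY progenitors, XX progenitors, Sertoli and pregranulosa cells.

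The 3 genes of the intracellular Fgf11 subfamily, whose products stay in the cell and bind sodium channels, had both marks in all 4 lists. At Fgf11 the H3K27me3 region was 27687 and 22889 bases wide in the progenitors, 10624 in Sertoli cells and 6299 in pregranulosa cells, and it covered 4001 bases of the window in 3 lists and 1420 in pregranulosa cells. H3K27me3 covered 100%, 100%, 50.5% and 0% of its gene body. The pregranulosa region, chr11:69615940-69622238, thus lay upstream of Fgf11, and it held the start of 1 other coding gene. Fgf11 had no H3K27me3 in pregranulosa cells with at least 50% of the window required, with the widest 75% of regions or with lists of equal length. Fgf12 and Fgf14 are long genes, and H3K27me3 covered from 1.71% to 2.38% of their bodies in the 4 lists although their windows were fully covered.

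The endocrine ligands act at a distance through Klotho co-receptors. Fgf15 had both marks in all 4 lists and its H3K27me3 region was 41508 bases wide in Sertoli cells, against 16235 to 16916 in the other lists. At Fgf21, H3K27me3 covered 2234 and 2081 bases in XY and XX progenitors and 4001 and 3799 in Sertoli and pregranulosa cells, and its region was 6262, 6266, 21270 and 9010 bases wide. Fgf23, the phosphate-lowering hormone, lies at chr6:127022920-127031426 on the plus strand, and H3K27me3 covered 0 bases of its window in either progenitor, 3772 in Sertoli cells and 1395 in pregranulosa cells. Of its gene body, 70.3% and 73.2% was covered in XY and XX progenitors and 100% and 92.9% in Sertoli and pregranulosa cells, so part of the gene was already covered at E10.5. The region covered the start of the record in Sertoli cells, and in pregranulosa cells it began inside the gene. It was 15209 bases wide in Sertoli cells and 12861 in pregranulosa cells. H3K4me3 covered 1001 bases of the window of Fgf23 in XX progenitors and 0 in the other lists, and it covered 14.8%, 28.2%, 14.7% and 17.7% of the gene body. With at least 50% of the window required, Fgf21 and Fgf23 had no H3K4me3 in any list. H3K27me3 in the E13.5 pair alone was found at Fgf23 and Spry1, against 1.69% of all genes.

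All 5 receptor genes had H3K4me3 in all 4 lists, but with at least 50% of the window required Fgfr1 had none in XY progenitors and Fgfr4 none in XY progenitors or pregranulosa cells. Fgfr1, Fgfr3 and Fgfr4 also had H3K27me3 in each. With the widest 75% of regions, Fgfr1 had none in XX progenitors, Fgfr3 none in either progenitor and Fgfr4 none in Sertoli cells, and Fgfr4 also had none there with lists of equal length. Fgfr3 had none in XY progenitors under the 3 stricter rules for window and overlap. At Fgfr3, H3K27me3 covered 469 bases of the window in XY progenitors, 2577 in XX progenitors and 4001 at E13.5 in either sex, and the region was 19099 bases wide in Sertoli cells against 5001, 5001 and 7837 in XY progenitors, XX progenitors and pregranulosa cells. At Fgfr1 it covered 2472, 3000, 4001 and 3861 bases, in regions 6561, 5001, 15503 and 9599 bases wide. A second coding record of Fgfr1 starts 5141 bases further in and had both marks in all 4 lists, with H3K27me3 over 2949, 861, 4001 and 4001 bases. Fgfr2, the receptor for FGF9 in the XY gonad, had no H3K27me3 at any coding start in any list, and 4001 bases of H3K4me3 at the record's start. That start belongs to a transcript that begins 2904711 bases from the RefSeq start, where H3K4me3 covered 2345, 2938, 2256 and 2955 bases, so the gene body values of Fgfr2 describe that long record.

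Fgfrl1 encodes a receptor that lacks the kinase domain, and it lies at chr5:109123248-109135969 on the plus strand. H3K27me3 covered 0 bases of its window in XY progenitors, XX progenitors and Sertoli cells and 2684 bases in pregranulosa cells, in a region of 5001 bases that covered 5.38% of the gene. H3K4me3 covered 3892, 4001, 3672 and 3616 bases, and it covered 27.6%, 37.3%, 51.4% and 12.7% of the gene body, the lowest share being that of pregranulosa cells. The adaptor gene Frs2, at chr10:116507185-116585530 on the minus strand, had H3K27me3 in XX progenitors alone, over 3200 bases in a region of 5001 bases that covered 1.53% of the gene, and H3K4me3 over 3120, 4001, 4001 and 4001 bases. With only the widest 75% of regions of each list, Fgfrl1 and Frs2 had no H3K27me3 in any list.

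The 7 feedback inhibitors had H3K4me3 in all 4 lists. H3K27me3 was called at 2 of them in XY progenitors, 2 in XX progenitors, 2 in Sertoli cells and 5 in pregranulosa cells, against 23.6%, 22.8%, 24.2% and 22.1% of all genes. Spred3 had it in all 4 lists, and Spred1 and Spred2 had it in none, at the promoter or in the gene body. The 3 Sprouty genes and Dusp6 each differed between lists, and all 4 had it in pregranulosa cells.

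Dusp6 encodes a phosphatase that inactivates ERK, and it lies at chr10:98725865-98730122 on the plus strand. H3K27me3 covered 0 bases of its window in XY progenitors, XX progenitors and Sertoli cells and all 4001 bases in pregranulosa cells. The pregranulosa region was 13974 bases wide, chr10:98722050-98736023, and it held the whole gene. H3K4me3 covered 4001 bases of the window in every list, and 86.2%, 97.4%, 92.4% and 72.0% of the gene body. Dusp6 was thus bivalent in pregranulosa cells and had H3K4me3 alone in the other 3 populations. This held under each alternative that does not move the start, and Dusp6 has no other start in the annotation or in RefSeq.

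Spry2, at chr14:106291166-106296036 on the minus strand, had H3K27me3 in pregranulosa cells alone as well, over 1277 bases of the window and 85.1% of the gene body, in a region of 5001 bases. H3K4me3 covered 4001 bases of its window in each list. The call at Spry2 and that at Fgfrl1 were not made when only the widest 75% of regions were kept or when the lists were reduced to the same number, and that at Spry2 also not when at least 50% of the window had to be covered. H3K27me3 in pregranulosa cells alone was found at 3 members (Fgfrl1, Spry2 and Dusp6), against 1.09% of all genes, and in Sertoli cells alone at 0 members, against 3.28%. Fgf23 had it in Sertoli cells alone with at least 50% of the window required, and Fgf1 did with the widest 75% of regions.

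Spry1, at chr3:37538869-37543520 on the plus strand, had H3K27me3 over 0 bases of its window in XY and XX progenitors, 2942 in Sertoli cells and 4001 in pregranulosa cells. Its region was 26793 bases wide in Sertoli cells and 7504 in pregranulosa cells and covered the whole gene in either. H3K4me3 covered 2385, 2714, 2684 and 2673 bases. Spry1 was the 1 feedback inhibitor with H3K27me3 in Sertoli cells that had none in XY progenitors.

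Spry4, at chr18:38745922-38760922 on the minus strand, had H3K27me3 over 3481 bases of its window in XY progenitors, 4001 in XX progenitors, 0 in Sertoli cells and 4001 in pregranulosa cells. Its region was 6259, 10367 and 15268 bases wide in the 3 lists that had it, and H3K27me3 covered 31.9%, 47.6%, 0% and 60.8% of the gene body. H3K4me3 covered 3660, 4001, 4001 and 3107 bases of the window, and 12.0%, 14.2%, 25.4% and 7.38% of the gene body, so that it reached furthest in Sertoli cells. The start of Spry4 faces those of 2 other coding records on the opposite strand, Arhgap26 and 9630014M24Rik, and the same regions covered all of them.

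Of the ETS factors, which are transcribed in response to FGF signalling, Etv4 had both marks in all 4 lists, with H3K27me3 regions of 20154 to 24757 bases. Etv5 did not. It lies at chr16:22381382-22439792 on the minus strand, and H3K27me3 covered 4001 bases of its window in XY progenitors, 4001 in XX progenitors, 0 in Sertoli cells and 4001 in pregranulosa cells, in regions of 12760, 10318 and 10303 bases. H3K27me3 covered 14.9% of the gene body of Etv5 in XY progenitors, 9.65% in XX progenitors, 0% in Sertoli cells and a share between those of the progenitors in pregranulosa cells. H3K4me3 covered 3495, 4001, 3822 and 3870 bases. The H3K4me3 region at Etv5 was 3495, 4474, 5537 and 3974 bases wide, the widest being that of Sertoli cells. Etv5, Fgf9 and Spry4 had H3K27me3 in every list but that of Sertoli cells (3 members, against 1.63% of all genes), and these calls were the same under each alternative run for them. With the widest 75% of regions or lists of equal length, Fgfr4 had that pattern too. In every list but that of pregranulosa cells, 0 members had it (against 1.09%), but Fgf11 did with at least 50% of the window required, with the widest 75% of regions and with lists of equal length.

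**Figure D2:**
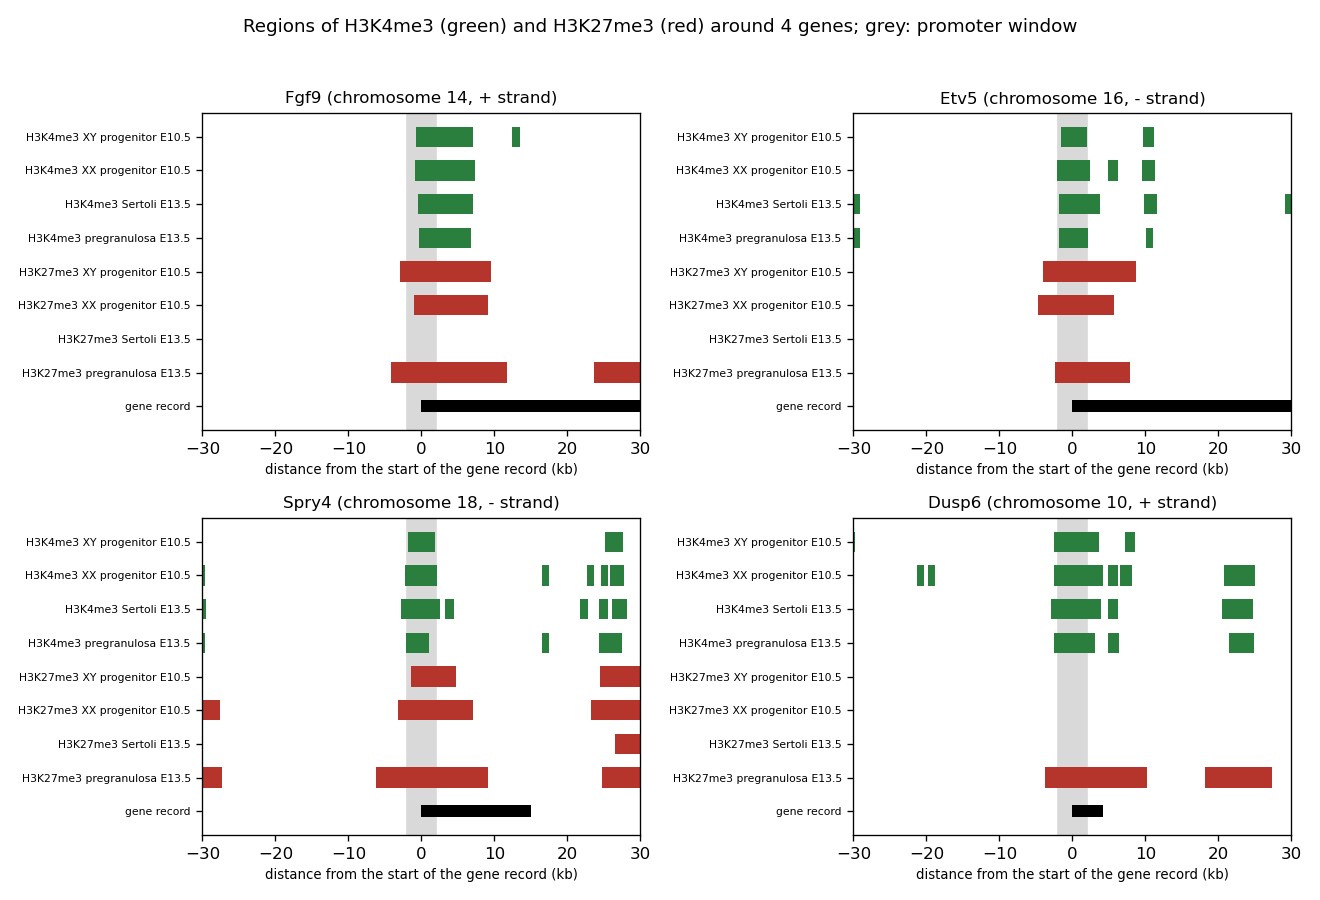
Regions of H3K4me3 (green) and H3K27me3 (red) in the 8 lists within 30 kb of the start of Fgf9, Etv5, Spry4 and Dusp6, with the gene record in black, the promoter window in grey and distance in kb along the direction of transcription. The Sertoli row of H3K27me3 is empty at the promoter of each of the 4 genes, and at Dusp6 the pregranulosa row alone is filled.

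Over the gene body, from start to end of the record, the median share covered by H3K27me3 over the 35 members was 14.9% in XY progenitors, 9.65% in XX progenitors, 18.2% in Sertoli cells and 39.6% in pregranulosa cells, and over all autosomal protein-coding genes it was 0% in each. The median of Sertoli cells was below that of XY progenitors with the widest 75% of regions (12.4% and 13.8%) and with lists of equal length (12.4% and 14.9%). That of XX progenitors was 6.41% with the widest 75% of regions. The depth of the pregranulosa list is unknown, and its peaks may have been joined beforehand. Its share may therefore not compare with those of the other lists, and what this contributed was not tested. At least 50% of the body was covered at 9, 10, 13 and 15 members, against 8.0%, 8.02%, 11.4% and 8.71% of all genes. The members were spread widely: in Sertoli cells the quartiles were 0% and 88.6%, and in pregranulosa cells 6.40% and 100%. The median share covered by H3K4me3 was 12.0%, 19.9%, 14.2% and 12.7%, against 3.77%, 5.40%, 4.82% and 5.87% of all genes. Some short genes, such as Fgf3, Fgf4, Fgf8 and Fgf15, lay wholly or almost wholly inside H3K27me3 regions in all 4 lists. Others did not: Fgf22 had 0% covered in each list, and Spry1, Spry2 and Dusp6 had 0% in both progenitors. Fgf21 had 14.8% in XY and 5.11% in XX progenitors.

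Some members are neighbours. The starts of Fgf3, Fgf4 and Fgf15 lie within 58.4 kb on chromosome 7, Fgf6 and Fgf23 start 57.4 kb apart on chromosome 6, and Spry1 and Fgf2 start 327 kb apart on chromosome 3. Fgf1 and Spry4 start 328 kb apart on chromosome 18. In none of the 8 lists did 1 region cover the promoters of 2 members. The 3 neighbours on chromosome 7 each had H3K27me3 in all 4 lists, in regions of their own.

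Base composition was read from the genome in the 500 bases either side of the start. The ratio of observed to expected CpG dinucleotides had a median of 0.676 over the members and 0.559 over all genes, and GC content had a median of 59.4% and 55.0%. Over the 16 members with H3K27me3 in all 4 lists the median CpG ratio was 0.605, over the 11 that differed 0.819, and over the 8 with none 0.675. The ranges overlapped, at 0.242 to 0.789, 0.175 to 0.981 and 0.345 to 1.01. These classes and ratios were taken at the record's start. Fgf2, Fgf10 and Fgf20 are among the 8, although H3K27me3 was called in all 4 lists at an inner coding start of each. The 27 members with H3K4me3 in all 4 lists had a median CpG ratio of 0.732, and the other 8 one of 0.362. Fgf1 (0.239), Fgf21 (0.242) and Fgf23 (0.175) were the 3 members with the lowest ratios.

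Promoters were searched on both strands for CCGGAAGT, a motif of ETS factors, and AACAAT, a motif of SOX factors, from 250 bases before the start to 50 after it. The ETS motif was in 2 of the 35 members, Fgfrl1 and Frs2 (4.76% of all genes), and the SOX motif in 4, Fgf10, Fgf23, Fgfr1 and Dusp6 (9.90% of all genes). In the RefSeq promoters the ETS motif was in 3.89% and the SOX motif in 10.7%. The promoters below are examples from genes whose H3K27me3 call set Sertoli or pregranulosa cells apart, and Fgf18 differs from them in having none in either. Spry2 and a second promoter of Etv5, chr16:22438392-22438691 with a GC content of 60.0%, are not shown. They are RefSeq promoters of GRCm38.p6, placed on mm9 by exact match, with mm9 positions. Capitals mark the motifs, and a promoter with no capitals holds neither.
Fgf9, plus strand, chr14:58691273-58691572: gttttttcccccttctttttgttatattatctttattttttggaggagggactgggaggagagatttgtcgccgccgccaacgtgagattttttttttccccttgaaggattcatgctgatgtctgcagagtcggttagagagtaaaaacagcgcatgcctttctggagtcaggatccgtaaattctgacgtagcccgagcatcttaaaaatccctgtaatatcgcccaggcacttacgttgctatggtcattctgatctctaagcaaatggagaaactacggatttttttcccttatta
Etv5, minus strand, chr16:22439594-22439893: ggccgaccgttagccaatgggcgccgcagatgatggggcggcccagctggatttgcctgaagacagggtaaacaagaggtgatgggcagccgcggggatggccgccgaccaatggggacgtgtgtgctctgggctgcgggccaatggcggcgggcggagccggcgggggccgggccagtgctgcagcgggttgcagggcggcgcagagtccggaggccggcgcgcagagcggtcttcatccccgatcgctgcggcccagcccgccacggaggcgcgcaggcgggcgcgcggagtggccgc
Fgf18, minus strand, chr11:33047351-33047650: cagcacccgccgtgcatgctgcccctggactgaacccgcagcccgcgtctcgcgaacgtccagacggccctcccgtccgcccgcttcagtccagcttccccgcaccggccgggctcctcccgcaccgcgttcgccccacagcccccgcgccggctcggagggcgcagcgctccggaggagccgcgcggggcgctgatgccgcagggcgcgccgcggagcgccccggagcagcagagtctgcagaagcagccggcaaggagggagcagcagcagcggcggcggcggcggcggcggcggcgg
Dusp6, plus strand, chr10:98725615-98725914: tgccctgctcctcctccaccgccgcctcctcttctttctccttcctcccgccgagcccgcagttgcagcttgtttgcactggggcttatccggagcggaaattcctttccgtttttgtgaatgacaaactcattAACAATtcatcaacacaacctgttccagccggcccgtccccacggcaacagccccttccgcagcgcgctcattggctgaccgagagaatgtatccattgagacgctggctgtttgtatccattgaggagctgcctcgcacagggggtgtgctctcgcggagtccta
Fgfrl1, plus strand, chr5:109122998-109123297: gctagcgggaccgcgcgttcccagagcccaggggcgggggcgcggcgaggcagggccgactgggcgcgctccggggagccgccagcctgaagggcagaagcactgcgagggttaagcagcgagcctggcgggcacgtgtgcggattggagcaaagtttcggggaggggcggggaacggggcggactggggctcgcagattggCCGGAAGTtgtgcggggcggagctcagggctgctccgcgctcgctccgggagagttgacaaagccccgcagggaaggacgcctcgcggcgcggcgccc
These 5 promoters differ in composition: that of Fgf9 holds 12 CG dinucleotides in 300 bases at a GC content of 42.7%, that of Dusp6 19 at 57.3%, and that of Fgf18 47 at 78.7%.

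Co-receptors and membrane partners of the FGF receptors were read in the same way. Of these 15 genes, H3K27me3 was called at 5 in XY progenitors, 5 in XX progenitors, 4 in Sertoli cells and 5 in pregranulosa cells, against 23.6%, 22.8%, 24.2% and 22.1% of all genes. Kl, a co-receptor of endocrine FGFs, had both marks in all 4 lists, and Klb had neither in any. Il17rd, a membrane inhibitor of FGF signalling, had 1785 and 2439 bases of H3K27me3 in XY and XX progenitors and 0 at E13.5.

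The 6 further feedback and target genes carried H3K27me3 at 3 in XY progenitors, 2 in XX progenitors, 4 in Sertoli cells and 6 in pregranulosa cells, against 23.6%, 22.8%, 24.2% and 22.1% of all genes, with H3K4me3 at all 6 in each list. Dusp4, an ERK phosphatase like Dusp6, had 1092 bases in XY progenitors, 0 in XX progenitors, 0 in Sertoli cells and 4001 in pregranulosa cells. Dusp5 had 4001 bases in both E13.5 lists and 0 in the progenitors. Etv1 had 448 bases, in pregranulosa cells alone.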

How the data were processed

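ChIP-seq of H3K4me3, H3K27me3 and H3 was made from 24 samples, 2 replicates of each in E10.5 progenitors of either sex, in E13.5 Sertoli cells and in E13.5 pregranulosa cells, by native ChIP of MNase-digested chromatin. Per the labels, the authors trimmed reads with Trim Galore, aligned them to mm9 with Bowtie, sorted them with SAMtools and called peaks with HOMER against H3; tool versions were not stated. Per the file headers, which 6 of the 8 lists have, peaks passed a fold of 4 over the control and over the local signal, with windows of 1000 bases for H3K4me3 and 5000 for H3K27me3. The score in the deposited lists that have one was 1 for every peak, so peaks could not be ranked by it, and widths are in bases.

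Peaks that overlapped were joined into regions: 37849, 41786, 39053 and 44349 for H3K4me3 and 9693, 9309, 13313 and 12609 for H3K27me3 in XY progenitors, XX progenitors, Sertoli and pregranulosa cells. The H3K27me3 list of pregranulosa cells held 12609 peaks with a median width of 8910 bases and none that overlapped, against 36469, 74001 and 74154 peaks with a median of 5001 in the other lists, so its peaks may have been joined beforehand by a rule that is not known, and its widths may not compare with theirs. A gene had a mark where a region overlapped TSS ± 2 kb of its GENCODE M1 record by at least 1 base, and the share of the gene body covered was taken from start to end of the record. A mark was lost or gained where the call differed between 2 lists. All autosomal protein-coding genes, 21418 in number, were read in the same way as the background. The 35 members and the gene lists were chosen with earlier results of these data known. Every member whose H3K27me3 call differed between lists is named, and the others by subfamily or role. The markers, co-receptors, membrane partners and further feedback and target genes were listed by hand, and the marker Spi1 was found under an older symbol. The methods of the study describe peaks called for each replicate, but there is 1 list per mark and population. The headers of the 4 progenitor lists name tag directories marked as concatenated, so the lists were taken as pools of both replicates. No header shows this for the other 4, although the names of all 8 lists carry the ending cat. No tests were made, and read depth beyond the tags in the headers was not analysed here. The calls were checked on simulated data. Alternatives were an overlap of at least 500 bases or 50% of the window, TSS ± 1 kb, the widest 75% of regions, lists of equal length, the start of any coding transcript, the gene body without the promoter and, chosen after seeing the data, the RefSeq start. Python 3.11.15, numpy 2.4.6 and matplotlib 3.10.9 were used.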

Additional observations from a re-analysis of the deposited data

Results flagged for a closer look

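At 2 ligands the difference in H3K27me3 between E10.5 and E13.5 ran in opposite directions in the sexes. At Fgf9 the promoter window had 4001 bases covered in XY progenitors and 0 in Sertoli cells, a difference of -4001, and 3044 in XX progenitors and 4001 in pregranulosa cells, a difference of 957. The XX difference minus the XY difference was 4958 bases. At the other 3 coding starts of Fgf9 the window was fully covered in XX progenitors and in pregranulosa cells, a difference of 0. With the window already full, a rise could not have shown there. Over the gene body of Fgf9 the share covered went from 23.0% to 0% in XY cells and from 21.9% to 60.4% in XX cells. At Fgf1 the differences were -722 bases from XY progenitors to Sertoli cells and 3655 from XX progenitors to pregranulosa cells, and they were 4377 bases apart. At Fgf1 this did not hold with the widest 75% of regions or with lists of equal length, where the promoter had no H3K27me3 in XX progenitors or pregranulosa cells, and the share of its gene body covered was higher at E13.5 in both sexes (3.71% and 18.2% in XY cells, 5.51% and 39.6% in XX cells). Each value comes from 1 list for each population, so the difference between the sexes was not tested.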

How the results depend on the processing

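Of 138 values of the 22 group results under the alternatives, 130 lay within 1.5 times the reported value and 8 did not. With at least 50% of the window covered, both marks were called at 11 members in XY progenitors, and 2 members had H3K27me3 in Sertoli and not in pregranulosa cells. With the widest 75% of regions, 4 members gained H3K27me3 from XY progenitors to Sertoli cells, 1 lost it from XX progenitors to pregranulosa cells (Fgf11, not Fgf18 or Frs2), 2 had it in Sertoli and not pregranulosa cells, and the median share of the gene body covered in XX progenitors was 6.41%. With lists of equal length, 3 members gained it from XX progenitors to pregranulosa cells, and 2 had it in Sertoli and not pregranulosa cells. The cause was not tested. For single genes the value was the number of populations with the mark, and 458 of 490 values lay within 1.5 times the reported one, a range that includes the loss of 1 call of 4. The 8 members without a RefSeq start kept the start of the record. The H3K27me3 calls of Fgf9, Spry1 and Etv5 were the same under all 7 alternatives for the promoter. Those of Spry4 and Dusp6, which have no other coding start in the annotation, were the same under the 5 that do not move the start. Of the 7, those of Fgfr3 were the same under 3, and those of Fgf11 and Spry2 under 4. At Spry2, which also has a single start, the alternatives that move the start could not change the call. No paired analysis was possible because there is 1 list for each mark and population, and for the same reason leaving out a replicate was not run.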

Other observations

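Some H3K27me3 regions near the members lay outside the promoter windows. Beyond the end of Spry4 a region was listed in all 4 populations, 10895 bases wide in XY progenitors, 11730 in XX progenitors, 15019 in Sertoli cells and 15210 in pregranulosa cells, so Sertoli cells had H3K27me3 there and none at the promoter of Spry4. Upstream of Spry4 a region of 9578 bases was listed in XX progenitors and 1 of 9787 bases in pregranulosa cells. Downstream of Dusp6 the pregranulosa list held a second region of 9149 bases. Inside Fgf1, regions of 6260, 13001 and 14984 bases were listed in pregranulosa cells, 1 of 15620 in Sertoli cells and 1 of 5001 in XX progenitors, where the promoter had none.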
